A study of Arabidopsis thaliana with 27 samples.

Results

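Seedlings of the Arabidopsis line labelled 35S::GOX2 were compared with wild-type (WT) seedlings after the same short exposure to cadmium (Cd), 100 μM for 30 min. The comparison rests on 6 of the 27 arrays of the series, 3 for each line, chosen by their titles and treatment labels and not by any measured value. Both lines are in the Col-0 accession. They were grown on solid MS medium for 2 weeks and then, by the study's methods, moved to liquid medium for the treatment. In the first, the coding sequence of GOX2 (AT3G14415) is driven by the 35S promoter of cauliflower mosaic virus, which is active in most plant tissues, and nothing in the labels says whether the line is a single insertion event. The other has no transgene, and neither group was left without Cd. Each array is labelled as 1 of 3 independent biological replicates of at least 5 pooled seedlings, while another label names leaves as the tissue. The exposure is labelled as 0.5 h, whereas the study's methods name 1 h. The remaining arrays of the series cover the mutant gox2, untreated plants of the lines and a longer exposure of 24 h.

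GOX2 encodes glycolate oxidase, the peroxisomal enzyme of photorespiration that turns glycolate into glyoxylate and releases hydrogen peroxide (H2O2). Cd is not a redox-active metal, but plants exposed to it accumulate H2O2, which comes from peroxisomes and from the NADPH oxidases of the plasma membrane among other sources. H2O2 acts as a signal, and the transcripts that respond to it within minutes include those of zinc finger, ERF and WRKY transcription factors, calcium sensors, heat shock factors and the jasmonate pathway. The comparison asks which transcripts differ early after Cd between plants labelled with high and with normal capacity for glycolate oxidation.

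All values are log2 intensities of single-color NimbleGen arrays, quantile-normalized over the 27 arrays, and are listed for replicates 1, 2 and 3 in that order. A feature was called higher or lower where limma gave an adjusted p under 0.05 over all 37118 features, which represent 32627 loci. Levels of different genes are not compared, since each probe set has its own brightness.

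The level of GOX2 checks the labels, and it did not follow them. GOX2 read 13.72, 14.05 and 13.88 on the arrays labelled 35S::GOX2 Cd 30 min and 10.03, 10.45 and 10.43 on those labelled WT Cd 30 min. The groups were far apart, with a difference of 3.58 (SE 0.12, limma adjusted p = 6.25e-14). The high arrays were nevertheless level with the untreated WT, whose 3 arrays read from 13.69 to 13.77 (difference 0.16, SE 0.12, adjusted p = 0.465). The arrays labelled 35S::GOX2 without Cd were among the lowest of the 27, from 9.60 to 9.79, and WT Cd 30 min lay 0.62 above them (adjusted p = 0.00219). Without Cd the same contrast between the lines had the opposite sign, at -4.05 (SE 0.12, adjusted p = 5.44e-15), and the difference between both contrasts was 7.63 (SE 0.17, adjusted p = 1.62e-17). Arrays labelled for the mutant lay on both sides. The mean of GOX2 was 9.94 on gox2 Cd 30 min, 13.89 on gox2 Cd 24 h and 14.13 on untreated atgox, a label without a gene number. Because these levels go against the labels, 35S::GOX2 and WT below stand for arrays so labelled, and nothing more is taken from the names.

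**Figure D1:**
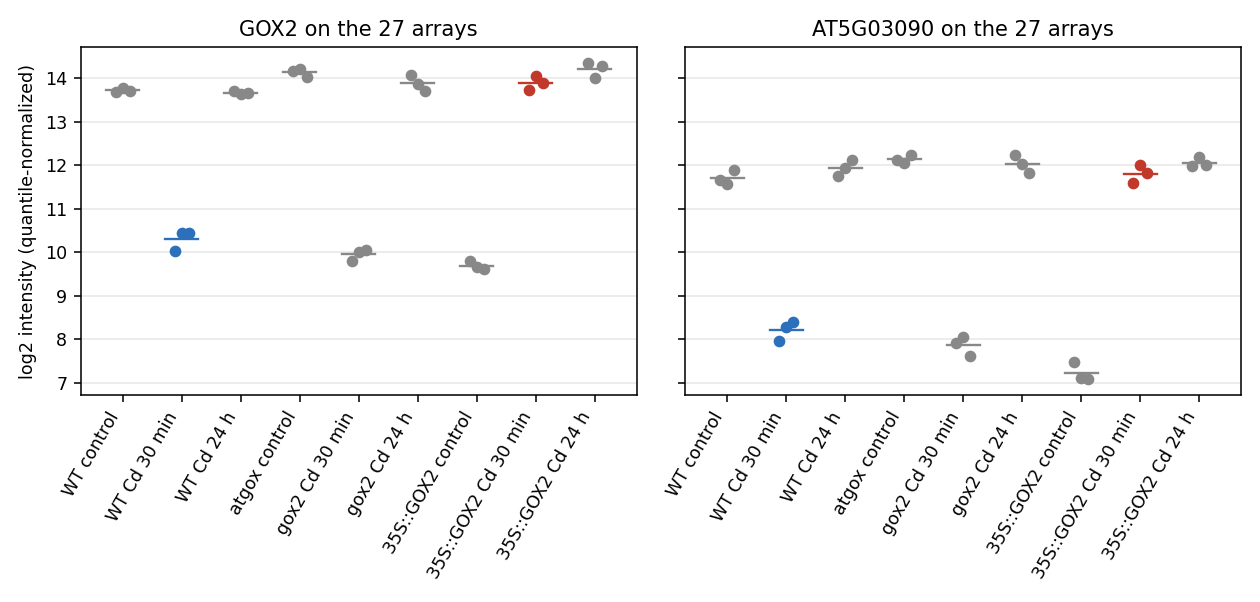
Log2 intensity of GOX2 (left) and AT5G03090 (right) on each of the 27 arrays by labelled group (points, with the group mean as a line); red marks 35S::GOX2 Cd 30 min and blue WT Cd 30 min. The red points lie with the WT control arrays, and the blue points with the arrays labelled gox2 Cd 30 min and 35S::GOX2 control. The arrays labelled atgox control, gox2 Cd 24 h, WT Cd 24 h and 35S::GOX2 Cd 24 h are also high.

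The arrays of the 35S::GOX2 group were not alike. Over the 37118 features, each set relative to its mean over the 27 arrays, replicates 1 and 3 correlated at r = 0.77, while replicate 2 had r = -0.34 with replicate 1 and -0.37 with replicate 3. Replicate 2 was most like replicate 2 of 35S::GOX2 Cd 24 h (r = 0.80) and replicate 2 of gox2 Cd 24 h (r = 0.79), and whether these arrays share a batch was not tested, while replicates 1 and 3 were, after each other, most like replicate 3 of gox2 Cd 24 h (0.73 and 0.74). These r values describe features of the same arrays, which are not independent. Replicate 2 stood more than 1 log2 unit above both other arrays of its group for 815 features and below both for 1111, against at most 12 for replicate 1 or 3 in either direction. The WT arrays were closer, with r from 0.55 to 0.79, although replicate 1 stood above both others for 190 features. Replicate 1 of WT was more like replicate 3 of 35S::GOX2 control (r = 0.66) than replicate 3 of its own group (0.55). Its r values with WT control lay between -0.31 and -0.25. For replicate 3 of WT the r values with both untreated groups lay between 0.08 and 0.15. Replicates 1 and 3 of 35S::GOX2 had r from 0.29 to 0.43 with WT control and from -0.07 to 0.21 with 35S::GOX2 control. The source of this likeness was not tested. All 3 arrays labelled 35S::GOX2 Cd 30 min were on slide 3 and all 3 labelled WT Cd 30 min on slide 2, so line and slide cannot be told apart. Array medians before normalization lay between 10.04 and 10.16.

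Between the groups, 6261 features were called, 16.9% of those tested, of which 3009 were higher (8.11%) and 3252 lower (8.76%) on the arrays labelled 35S::GOX2. A change of at least 2-fold was seen in 550 of the higher and 736 of the lower features. Counted with 1 feature per locus, 2436 loci were higher (7.47%) and 2979 lower (9.13%). The arrays of both groups did not overlap for 2821 of the higher and 3122 of the lower features, while over all features this held for 34.2%, with every WT array above every 35S::GOX2 array for 18.2%. Among called features, replicate 2 was at or below the highest WT array for 138 that were called higher. The median difference over all features was -0.01, the median SE 0.14 and the median SD 0.17 for 35S::GOX2, 0.06 for its replicates 1 and 3 alone, and 0.10 for WT.

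Single arrays moved these counts. Without replicate 2 of 35S::GOX2, 7375 features passed, of which 5015 were shared in the same direction with the 6261, and without replicate 1 of WT 2167 passed. A random block for slide left 1259 of the 6261 (635 higher, 624 lower). Per locus, 1.52% were higher with that block and 9.17% without replicate 2. Of the 139 genes named by rule beside GOX2 that passed, 73 passed whichever of the 6 arrays was left out, and a gene below whose call was lost without an array carries that remark.

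The widest gaps between the groups among higher genes belonged to GOX2 and to AT5G03090, whose function is not annotated in the sources used here. AT5G03090 read 11.58, 12.01 and 11.82 on 35S::GOX2 and 7.95, 8.28 and 8.39 on WT (difference 3.6, SE 0.15, adjusted p = 3.56e-12). AT5G15420 read 9.65, 9.86 and 9.78 against 6.84, 7.30 and 7.23 (difference 2.64, SE 0.26, adjusted p = 1.5e-05). Like GOX2, both were also high in the untreated WT, from 11.57 to 11.89 and from 9.34 to 9.77, and low on the untreated arrays labelled 35S::GOX2, from 7.07 to 7.47 and from 6.32 to 6.38.

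In 8 of the other 9 genes with the widest gaps the untreated WT arrays lay below the untreated 35S::GOX2 arrays, and in AT3G10930 both overlapped. AT3G10930 read 7.90, 7.91 and 8.07 on 35S::GOX2 and 4.70, 5.36 and 5.35 on WT (difference 2.82, adjusted p = 0.000153). AT2G32210 read 8.67, 8.93 and 8.91 against 5.69, 5.88 and 6.18 (2.92, adjusted p = 0.000232), and its neighbour AT2G32200 read 10.24, 9.39 and 10.29 against 7.43, 7.42 and 7.44 (2.54, adjusted p = 0.000861). Replicate 2 was level with its partners in AT3G10930 and AT2G32210 and lower in AT2G32200, and in none did the groups overlap. AT1G70130, a lectin receptor kinase (LecRK-V.2), read 8.10, 7.88 and 8.01 against 5.66, 5.85 and 5.51 (2.33, adjusted p = 0.000877). AT1G78410, which encodes a VQ motif-containing protein, read 9.41, 8.88 and 9.36 against 6.33, 7.07 and 6.97 (2.42, adjusted p = 0.000488). The remaining 4 loci, AT4G37290, AT3G01830, AT3G29000 and AT5G36925, had differences of 3.01, 3.21, 2.31 and 2.55. All 12 genes passed without any one array and with slide as a random block. They were picked by their gap on these same arrays, so these fits are no independent check.

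**Figure D2:**
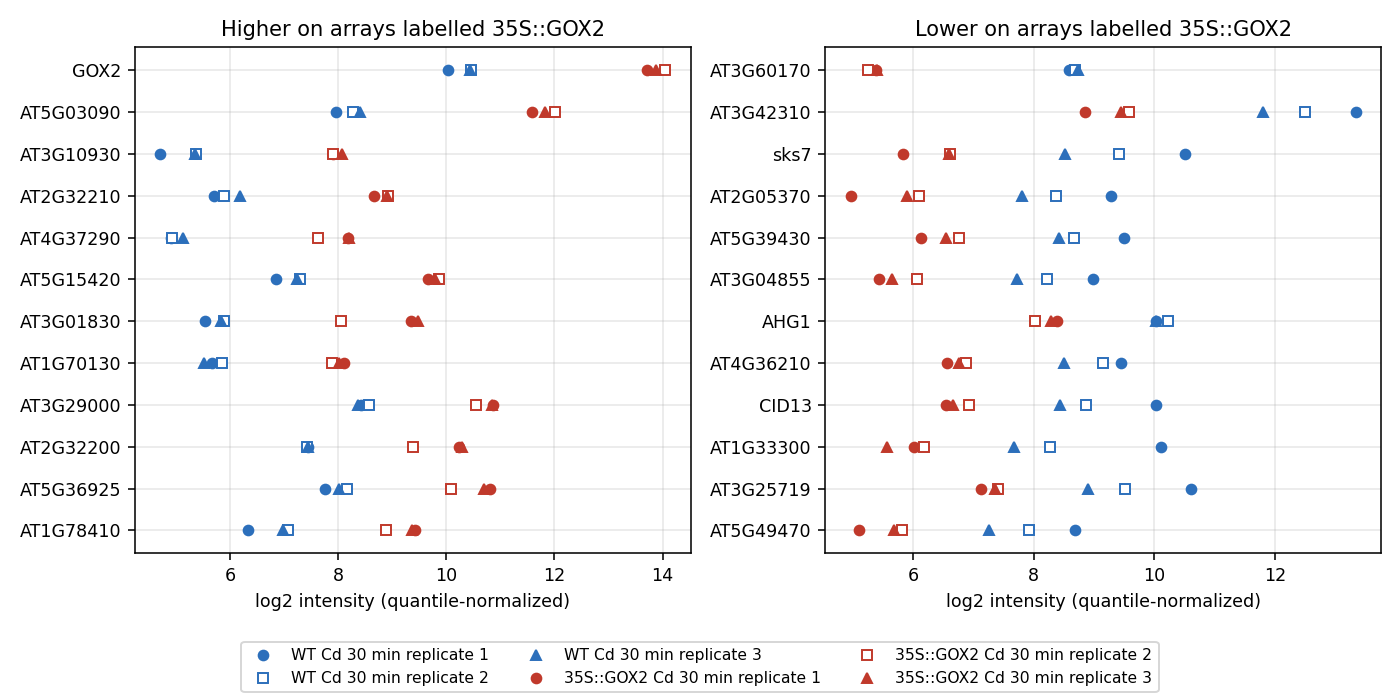
Log2 intensity on each of the 6 arrays (symbols by replicate, red 35S::GOX2 Cd 30 min, blue WT Cd 30 min) for the 12 higher and 12 lower genes with the widest gap between the nearest arrays of the groups. On the left the open red squares (replicate 2) often lie between the other red symbols and WT, and on the right the WT arrays spread widely, with replicate 1 highest in all but AT3G60170 and AHG1.

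Among lower genes, AT3G60170 had the widest gap. This locus, annotated as a pseudogene, read 5.38, 5.25 and 5.40 on 35S::GOX2 and 8.59, 8.68 and 8.73 on WT (difference -3.32, SE 0.15, adjusted p = 6.23e-12). It mirrored GOX2, being low in the untreated WT (5.01 to 5.39) and high on the untreated 35S::GOX2 arrays (8.19 to 8.29). AT3G42310 read 8.85, 9.58 and 9.46 against 13.34, 12.50 and 11.81 (-3.26, adjusted p = 0.000227). sks7, a gene named for its similarity to the multicopper oxidase-like protein SKU5, read 5.84, 6.61 and 6.60 against 10.51, 9.41 and 8.53 (-3.13, adjusted p = 0.00173). In AT3G42310 and sks7 the 35S::GOX2 arrays were all low, and the WT arrays were all higher but unlike each other. AHG1, a protein phosphatase 2C that restrains abscisic acid signaling in seeds, differed from this pattern with level WT arrays, at 8.39, 8.02 and 8.28 against 10.03, 10.23 and 10.04 (-1.87, adjusted p = 0.00141). The Raf-like kinase gene AT5G49470 (RAF10) read 5.11, 5.81 and 5.69 against 8.68, 7.93 and 7.26 (-2.42, adjusted p = 0.000644). The other 7, which were AT2G05370, AT5G39430, AT3G04855, AT4G36210, CID13, AT1G33300 and AT3G25719, differed by between -2.83 and -2.29. All 12 passed without any one array, and all but CID13 (adjusted p = 0.057) passed with slide as a random block. These genes too were picked by their gap on the same arrays.

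Within peroxisomal metabolism, calls were limited to GOX2 and HAOX1. Of the 5 members of the GOX family, GOX2 rose and HAOX1, a 2-hydroxyacid oxidase, fell by 0.24. HAOX1 read 11.37, 11.42 and 11.42 against 11.64, 11.61 and 11.69 (adjusted p = 0.0307), a call that was lost without any one array other than replicate 2 of 35S::GOX2. GOX1, the close paralog of GOX2, read 15.31, 15.26 and 15.27 against 15.23, 15.16 and 15.22 (difference 0.08, adjusted p = 0.389). Cross-hybridization between these paralogs was not tested. GOX3 (0.26, adjusted p = 0.413) and HAOX2 (-0.22, adjusted p = 0.143) did not pass.

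No member was called among 16 genes of photorespiration (median difference -0.07), 19 catalases and other antioxidant enzymes (0.03), 17 genes of beta-oxidation and the glyoxylate cycle (0.02) or 20 peroxins (-0.01), beside a median of -0.01 over all loci. At an unadjusted p under 0.05, limma gave 2, 0, 2 and 3 members of these lists and Student's unadjusted test 0, 2, 1 and 2. CAT2, the main catalase of photosynthetic cells, read 13.92, 14.28 and 14.02 against 13.99, 14.04 and 13.98 (0.07, SE 0.11, adjusted p = 0.7). HPR, the peroxisomal hydroxypyruvate reductase, read 14.56, 14.30 and 14.48 against 14.49, 14.56 and 14.54 (-0.08, SE 0.10, adjusted p = 0.593). CSD1, a cytosolic superoxide dismutase, had the largest difference of the antioxidant genes, 0.27 (adjusted p = 0.179). In the beta-oxidation list, leaving out replicate 1 of 35S::GOX2 or replicate 3 of WT brought 1 member past the threshold.

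Transcription factors of the rapid stress response were among the groups with large shares of higher genes. Of the 11 C2H2 zinc finger factors measured, 9 rose and none fell (81.8% against 7.47% of all loci), with a median difference of 1.1. ZAT7 read 10.50, 9.62 and 10.59 against 8.33, 8.24 and 8.26 (1.96, SE 0.33, adjusted p = 0.000967). STZ (ZAT10), a repressor induced by many abiotic stresses, read 13.28, 12.41 and 13.36 against 11.21, 11.58 and 11.23 (1.68, adjusted p = 0.00186). Both were high on all 3 arrays, with replicate 2 below its partners and still clear of WT. ZAT11 rose by 1.64 (adjusted p = 0.00355) and ZF2 by 1.16 (adjusted p = 0.00276). AT3G53600 was the most even, at 8.04, 8.03 and 8.05 against 6.16, 6.78 and 6.89 (1.43, adjusted p = 0.00806), and did not pass without replicate 1 of WT. The count of 9 fell to 6 without that array and to 3 with slide as a random block.

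Of 25 ERF and DREB factors, 13 rose and 1 fell, with a median of 0.82. RRTF1, an ERF that is strongly induced by redox imbalance and wounding, read 12.54, 8.13 and 12.41 on 35S::GOX2 and 8.17, 8.41 and 7.95 on WT. Replicates 1 and 3 were far above WT and replicate 2 lay within the WT range, which gave a difference of 2.85 with an SE of 0.94 (adjusted p = 0.0415) that passed only with all arrays or without replicate 2 (4.3, adjusted p = 0.00148). ERF13 read 11.07, 8.77 and 10.91 against 8.04, 8.62 and 8.16 (1.98, adjusted p = 0.0277), and TDR1 (ERF98) read 10.63, 8.68 and 10.58 against 8.40, 8.57 and 8.35 (1.53, adjusted p = 0.0241). In both, replicate 2 lay just above the highest WT array, and the call was lost without replicate 1 or 3 of 35S::GOX2 or replicate 1 or 3 of WT, for TDR1 also without replicate 2 of WT. AT5G51190 (ERF105) and ERF11 differed by 1.28 and 1.22 (adjusted p = 0.0314 and 0.0213) in the same pattern, with the losses of TDR1 and of ERF13, respectively. DDF1, a DREB factor related to the CBF proteins, did not pass with all arrays (11.16, 7.05 and 11.23 against 7.80, 7.43 and 7.08, adjusted p = 0.0765) and did without replicate 2 (3.76, adjusted p = 0.00284). ERF73, named after its values were seen, was the member called lower (-0.45, adjusted p = 0.0229), and passed only with all arrays or without replicate 2 of 35S::GOX2. Over the list the median of replicate 2 minus the WT mean was 0.17, against 1.05 for the mean of replicates 1 and 3. The list had 17 higher members without replicate 2, 4 without replicate 1 of WT and 3 with slide as a random block.

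Of 23 WRKY factors, 10 rose and none fell (median 0.56). WRKY53, a regulator of leaf senescence that responds to H2O2, read 10.72, 10.67 and 10.73 against 9.11, 9.06 and 9.10 (1.62, SE 0.39, adjusted p = 0.00774). Its arrays were level within each group, unlike those of WRKY46, a defence-related member, which read 10.91, 9.48 and 10.93 against 8.25, 8.93 and 8.75 (1.8, adjusted p = 0.00248). WRKY38 rose by 1.11 (adjusted p = 0.00589). WRKY48 rose by 1.01 but not without replicate 1 of WT, and WRKY70, a node between salicylate and jasmonate signaling, by 0.89 but not without that array or replicate 1 or 3 of 35S::GOX2. Without replicate 1 of WT 5 members passed, and with slide as a random block 1, which is none of those named here.

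**Figure D3:**
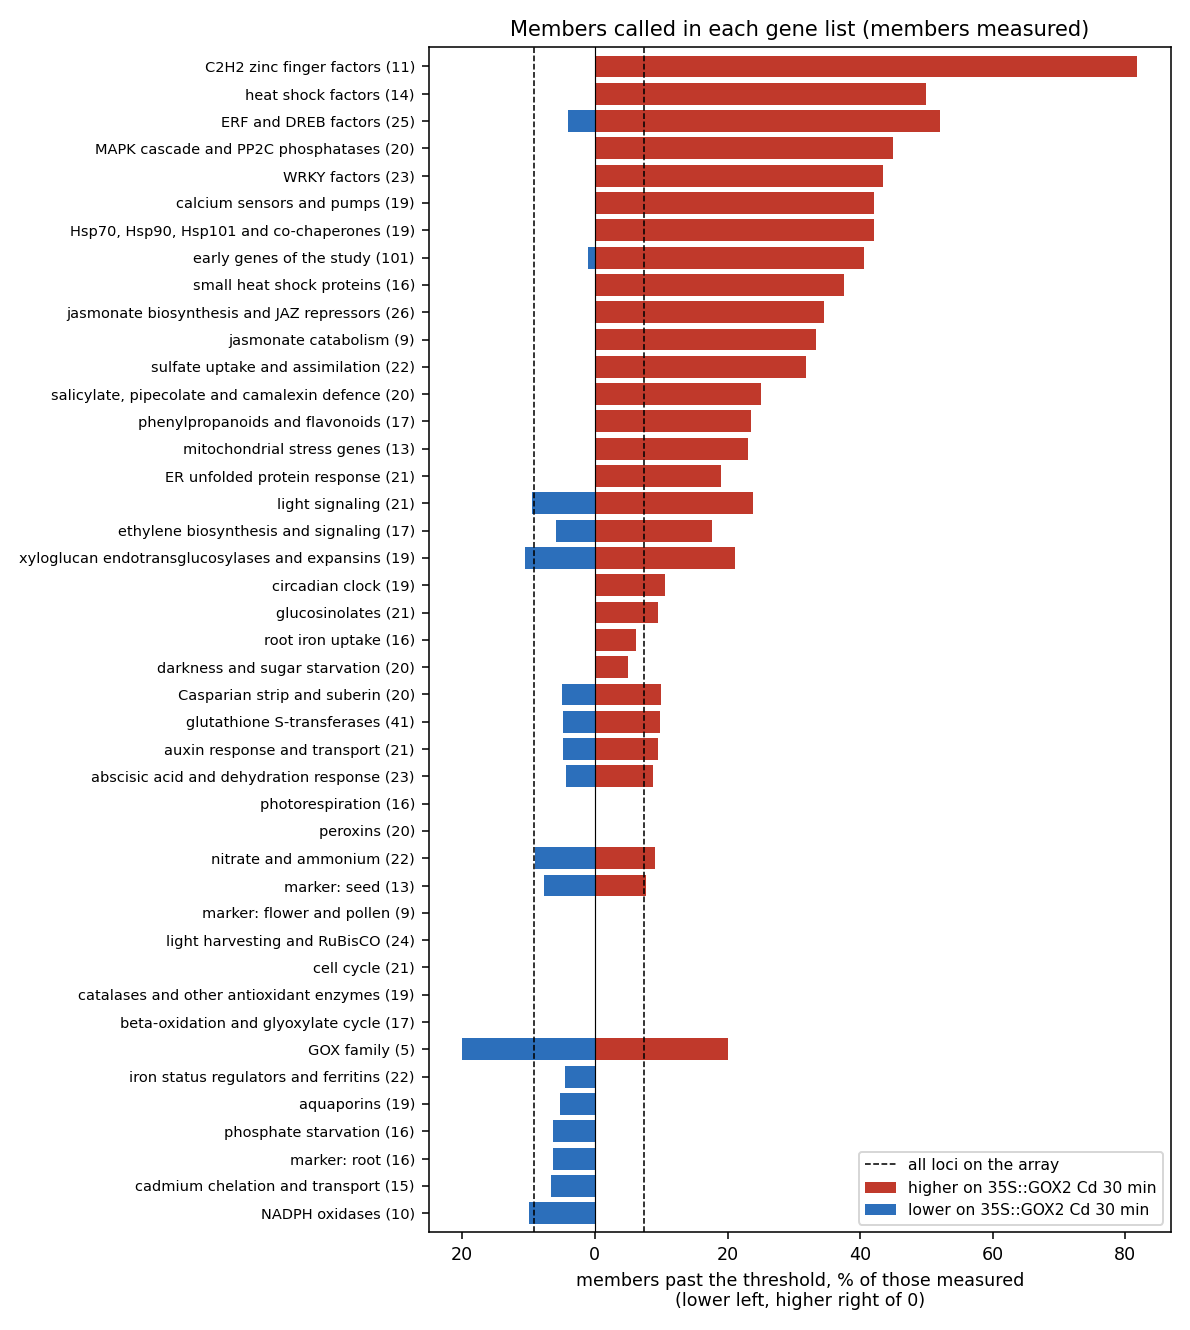
Share of the measured members of each gene list that were called higher (red, right of 0) or lower (blue, left of 0) on 35S::GOX2 Cd 30 min, with the number measured in brackets and dashed lines at the shares over all loci (7.47% higher, 9.13% lower). Transcription factor, signaling and heat shock lists extend furthest to the right, from 81.8% for C2H2 factors, and lists of peroxisomal metabolism have no bar except for the GOX family.

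Of 19 calcium sensors and pumps, 8 rose and none fell (median 0.50). The largest difference was that of AT3G01830, at 9.34, 8.05 and 9.48 against 5.53, 5.88 and 5.83. CML37, a calmodulin-like protein induced by wounding, read 11.42, 10.41 and 11.27 against 9.28, 9.86 and 9.30 (1.55, adjusted p = 0.00581). CML23, another calmodulin-like protein, read 10.32, 10.59 and 10.42 against 8.64, 9.0 and 9.31 (1.46, adjusted p = 0.000967), with replicate 2 the highest of the 6 arrays. AT3G22910 (ACA13), an autoinhibited calcium ATPase, read 9.84, 10.66 and 9.71 against 8.90, 9.02 and 8.99 (1.1, adjusted p = 0.00664). PBP1, a calcium-binding partner of the kinase PINOID, differed by 1.04 (adjusted p = 0.0208) with replicate 2 low, and its call was lost without replicate 1 or 3 of 35S::GOX2 or replicate 1 or 2 of WT. From 6 to 11 members passed when an array was left out, and 4 with slide as a random block.

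In the list of 20 MAPK cascade genes and PP2C phosphatases 9 rose and none fell (median 0.48). AGC2-1 (OXI1), a kinase needed for oxidative burst signaling, read 10.77, 11.48 and 10.60 against 9.98, 10.22 and 10.04 (0.87, adjusted p = 0.0212), highest on replicate 2, and did not pass without that array (0.61, adjusted p = 0.0957) or without replicate 1 of WT. MPK3, a stress-activated MAP kinase, read 14.63, 13.80 and 14.69 against 13.56, 13.78 and 13.71, with replicate 2 at the level of WT (0.69, adjusted p = 0.0401). AT2G30020 (AP2C1), a phosphatase that inactivates stress-responsive MAP kinases, MPK5 and MPK11 differed by 0.78, 0.77 and 0.64 in the same pattern. MPK3 and these 3 passed only with all arrays or without replicate 2. Without replicate 1 of WT 2 members of the list passed, and none with slide as a random block. Of the 10 NADPH oxidases none rose and RBOHB fell, at 13.22, 12.65 and 13.32 against 13.68, 13.79 and 13.66 (-0.64, adjusted p = 0.0239), a call that was lost without replicate 2 (-0.44, adjusted p = 0.108) or without replicate 1 or 2 of WT.

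Jasmonate genes split the 35S::GOX2 arrays. Jasmonates are made from fatty acids in plastids and peroxisomes, and their signal removes JAZ repressors, whose own genes are early targets. Of 26 biosynthesis and JAZ genes, 9 rose and none fell (median 0.49). JAZ7 read 11.20, 7.96 and 11.25 against 7.32, 7.44 and 7.45 (2.73, SE 0.71, adjusted p = 0.0125). The lipoxygenase genes LOX3 and LOX4, which act at the first step of synthesis, read 12.15, 9.93 and 12.09 against 9.48, 9.77 and 9.60 (1.77, adjusted p = 0.0181) and 13.37, 10.92 and 13.30 against 10.39, 10.87 and 10.54 (1.93, adjusted p = 0.0304). In all 3 genes replicates 1 and 3 were high and replicate 2 lay just above WT, and the calls were lost without replicate 1 or 3 or without replicate 1 of WT, for LOX4 also without replicate 2 or 3 of WT. JAZ10 (12.57, 10.53 and 12.69 against 9.78, 9.86 and 9.64) and JAZ1 (14.10, 13.32 and 14.14 against 12.89, 13.05 and 12.91) passed without any one array, with differences of 2.17 and 0.90. Over the list the median of replicate 2 minus the WT mean was -0.00, against 0.71 for replicates 1 and 3. From 4 to 15 members passed when an array was left out, the most without replicate 2, and none with slide as a random block.

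Of 9 genes of jasmonate catabolism, whose enzymes inactivate the hormone, 3 rose, none fell and 6 did not pass (median 0.40). CYP94B3, which hydroxylates jasmonoyl-isoleucine, read 12.004, 10.88 and 12.19 against 10.01, 10.05 and 9.82 (1.73, adjusted p = 0.00276), and CYP94C1, which oxidizes it further, read 12.69, 11.12 and 12.63 against 10.73, 10.75 and 10.64 (1.44, adjusted p = 0.00489). AT2G38240 read 9.99, 9.25 and 9.91 against 7.51, 8.01 and 8.02 (1.87, adjusted p = 0.00267). All 3 passed without any one array, although none passed with slide as a random block (adjusted p from 0.06 to 0.12).

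Of 17 ethylene genes 3 rose and 1 fell (median -0.03), and all 4 encode ACC synthases, which make the ethylene precursor. ACS7 was high on all arrays, at 11.80, 12.28 and 11.85 against 10.19, 10.64 and 10.50 (1.53, adjusted p = 0.000885), as was ACS6, at 12.57, 11.98 and 12.46 against 10.89, 11.11 and 10.91 (1.37, adjusted p = 0.00543). ACS11 differed by 1.17 (adjusted p = 0.011) and was not called without replicate 1 or 3 of 35S::GOX2 or replicate 1 of WT. ACS5 fell, at 7.98, 9.01 and 7.78 against 9.63, 9.55 and 9.67 (-1.36, adjusted p = 0.039), and passed only with all arrays or without replicate 2. Without replicate 2, 4 ethylene genes were lower, when 10.6% of all loci were. With slide as a random block only ACS7 passed.

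Of 23 abscisic acid genes 2 were called higher and 1 lower (median 0.11). These shares of 8.7% and 4.35% stand beside 7.47% and 9.13% of all loci. HAI1, a PP2C of this pathway, read 10.12, 11.71 and 10.38 against 9.46, 9.64 and 9.49 (1.21, adjusted p = 0.0227) and was not called without replicate 2 (0.72, adjusted p = 0.114) or without replicate 1 of WT. The transcription factor gene ABF4 fell by 0.53 (adjusted p = 0.00297), at 11.97, 12.12 and 11.99 against 12.62, 12.56 and 12.48. PYL4, a receptor, differed by 0.23 and passed only with all arrays or without replicate 2. No abscisic acid gene was higher without replicate 1 of WT, and 5 were without replicate 2, when 9.17% of all loci were higher. None passed with slide as a random block.

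Salicylate, pipecolate and camalexin genes had 5 of 20 higher and none lower (median 0.52). FRK1, a receptor-like kinase gene used as an early marker of immune signaling, read 7.87, 9.70 and 7.83 against 6.01, 6.77 and 6.52 (2.03, adjusted p = 0.00555), with replicate 2 the highest. CBP60G and SARD1, which activate salicylate synthesis, differed by 1.38 (adjusted p = 0.00607) and 1.25 (adjusted p = 0.0182), and SARD1 was at the WT level on replicate 2 (13.13, 11.55 and 13.09 against 11.15, 11.48 and 11.38). SAG101, a partner of EDS1 in immunity, was even, at 12.65, 12.51 and 12.67 against 11.87, 11.98 and 11.98 (0.67, SE 0.09, adjusted p = 0.000313). The calls of FRK1, CBP60G and SAG101 held without any one array, that of SARD1 was lost without replicate 1 or 3 of 35S::GOX2 or replicate 1 of WT, and that of CYP81F2, an indole glucosinolate monooxygenase (1.25, adjusted p = 0.035), held only without replicate 2. From 3 to 8 members passed when an array was left out. With slide as a random block FRK1 and SAG101 passed, and CBP60G did not (adjusted p = 0.101).

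Heat shock factors, which switch on chaperone genes when proteins unfold, and their targets were higher in part. Of 14 heat shock factors 7 rose and none fell (median 0.75). HSFA2, which sustains the heat shock response, read 13.72, 11.86 and 13.68 against 10.99, 11.51 and 11.40 (1.78, SE 0.54, adjusted p = 0.0274). HSFA6B read 9.54, 7.43 and 9.48 against 7.12, 7.49 and 7.67 (1.39, adjusted p = 0.0328), with replicate 2 inside the WT range. HSFA3, which acts in drought and heat, read 11.86, 11.003 and 11.77 against 10.61, 10.58 and 10.62 (0.94, adjusted p = 0.00538). HSFA3 passed without any one array, HSFA2 and HSFA6B not without replicate 1 or 3 of 35S::GOX2 or replicate 1 or 2 of WT. AT-HSFB2B and HSFB2A, class B factors, differed by 0.85 and 0.84, and their calls too were lost without replicate 1 or 3 or without replicate 1 of WT, for AT-HSFB2B also without replicate 2 or 3 of WT.

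Among 16 small heat shock proteins 6 rose and none fell (median 0.54). AT5G37670 read 9.97, 9.53 and 10.43 against 8.19, 8.75 and 8.98 (1.34, adjusted p = 0.00296), and AT5G51440 read 13.18, 13.83 and 13.16 against 12.29, 12.53 and 12.33 (1.01, adjusted p = 0.00351). These passed without any one array, and AT5G51440 was highest on replicate 2. AT1G54050 (HSP17.4B), AT1G07400 (HSP17.8) and HSP17.6A differed by 1.05, 0.86 and 0.69 and did not pass without replicate 1 or 3 of 35S::GOX2 or replicate 1 or 2 of WT. AT1G07400 and HSP17.6A also did not pass without replicate 3 of WT. Of 19 Hsp70, Hsp90, Hsp101 and co-chaperone genes 8 rose and none fell (median 0.45). MBF1C, a coactivator needed for heat tolerance, read 14.32, 13.72 and 14.36 against 13.01, 13.23 and 13.15 (1.01, adjusted p = 0.00528). Fes1A and HSP70 differed by 0.94 and 0.54 but were not called without replicate 1 or 3 of 35S::GOX2. HSP90.1 differed by 0.54 and passed only with all arrays or without replicate 2 of 35S::GOX2. Hsp70-2 differed by 0.48 and was not called without replicate 1 of 35S::GOX2 or replicate 1 or 2 of WT. The fewest calls without an array were 3 heat shock factors, 2 small heat shock proteins and 2 chaperones, and with slide as a random block the counts were 2, 1 and 0. HSFA3 and AT5G37670 did not pass with that block.

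In the list of the unfolded protein response of the endoplasmic reticulum 4 of 21 rose and none fell (median 0.02). BZIP60, a transcription factor that drives this response, read 14.12, 14.17 and 14.15 against 13.56, 13.70 and 13.58 (0.53, SE 0.08, adjusted p = 0.000647). ATERDJ3A, NAC062 and NAC103 differed by 0.94, 0.73 and 0.61, and all 4 passed without any one array. With slide as a random block BZIP60 and NAC103 passed, and ATERDJ3A (adjusted p = 0.111) and NAC062 (adjusted p = 0.104) did not. Of 13 mitochondrial stress genes 3 rose (median 0.47), of which BCS1, an AAA protein, read 13.60, 13.80 and 13.57 against 12.85, 12.81 and 12.63 (0.89, adjusted p = 0.00445) and TIM17-1, an import subunit, 10.75, 10.46 and 10.94 against 9.78, 10.05 and 10.04 (0.76, adjusted p = 0.00129). UCP5, a carrier of the inner membrane, differed by 1.16 and passed only with all arrays or without replicate 2. With slide as a random block TIM17-1 passed, and BCS1 (adjusted p = 0.0538) and UCP5 (adjusted p = 0.205) did not. The list's median for replicate 2 alone was 1.01 above WT, against -0.00 for replicates 1 and 3.

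**Figure D4:**
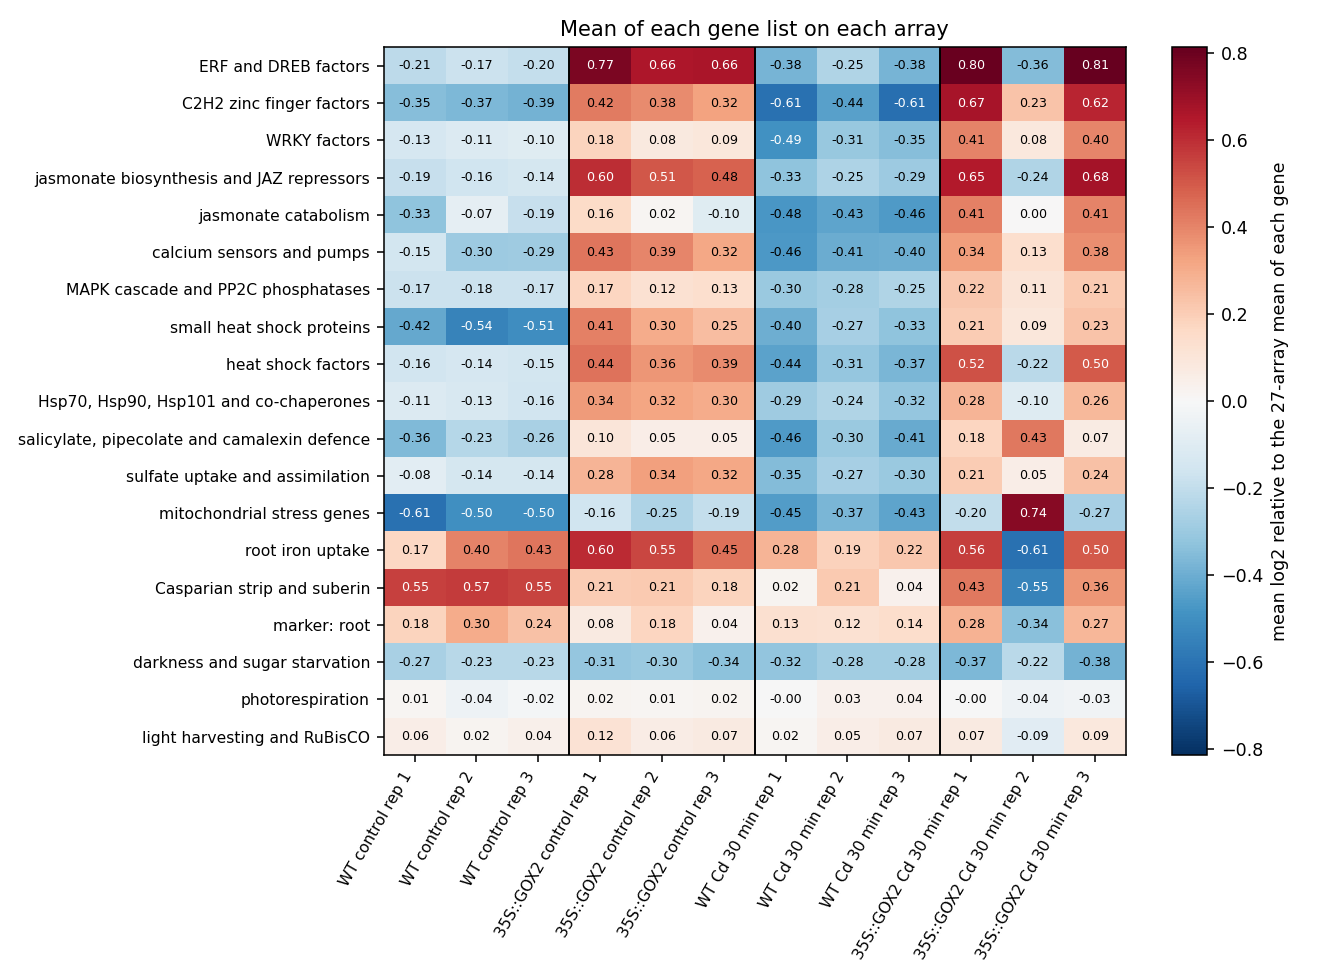
Mean over the members of 19 gene lists, each gene relative to its mean over the 27 arrays (color and number, log2), on the 3 arrays of each of 4 groups. On 35S::GOX2 Cd 30 min, the ERF and DREB list is at 0.80 and 0.81 on replicates 1 and 3 and at -0.36 on replicate 2, and the root iron uptake list at 0.56 and 0.50 on replicates 1 and 3 and at -0.61 on replicate 2.

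The LSU genes and a sulfate importer were higher on all 3 arrays of the 35S::GOX2 group. Sulfate assimilation supplies the cysteine of glutathione and phytochelatins, which bind Cd. Of 22 genes 7 rose and none fell (median 0.22). LSU2 and LSU1, named for their response to low sulfur, read 12.71, 11.83 and 12.77 against 10.19, 10.43 and 10.39 (2.1, adjusted p = 0.00416) and 11.28, 11.90 and 11.39 against 9.12, 9.83 and 9.93 (1.90, adjusted p = 0.00496). LSU3 read 12.85, 12.76 and 12.94 against 11.04, 11.37 and 11.46 (1.56, adjusted p = 0.00416). SULTR1;2, the main root sulfate importer, was the most even, at 13.79, 13.86 and 13.78 against 13.03, 12.97 and 12.94 (0.83, SE 0.14, adjusted p = 0.00101). APR1, which reduces activated sulfate, read 14.77, 14.24 and 14.70 against 13.90, 14.01 and 13.88 (0.64, adjusted p = 0.0159) and was not called without replicate 1 or 3 of 35S::GOX2 or replicate 1 of WT. From 4 to 9 members passed when an array was left out, and SULTR1;2 alone with slide as a random block.

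Over all loci 7.47% were higher and 9.13% lower, and the lists of Cd and glutathione genes lay near these shares. Of 15 genes of Cd chelation and transport only HMA3, a vacuolar metal pump, was called, at 7.52, 7.54 and 7.55 against 8.21, 8.01 and 7.94 (-0.52, adjusted p = 0.0107), and not without replicate 1 of WT. Col-0 is known to carry a nonfunctional HMA3 allele. Of 41 glutathione S-transferases 4 rose and 2 fell (median 0.13). GSTU22 was led by replicate 2, at 9.84, 11.07 and 9.77 against 9.0, 8.87 and 8.83 (1.33, adjusted p = 0.0159), and was not called without it (0.91, adjusted p = 0.075) or without replicate 1 of WT. GSTU27 (0.59) and GSTU6 (0.82) passed without any one array, and GSTU5 (0.88) did not without replicate 1 of WT. GSTU21 fell by 1.34 (adjusted p = 0.0118) but not without replicate 1 of either group, and GSTU14, named after its values were seen, was called lower (-0.56, adjusted p = 0.0492), but not without replicate 2 of 35S::GOX2 or any WT array. With slide as a random block none of these Cd and glutathione genes passed.

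Iron genes were called no more often than all loci, and yet separated replicate 2 from its partners. Of 16 genes of root iron uptake 1 rose (6.25%, against 7.47% of all loci, median -0.19), or 3 without replicate 2 (against 9.17% of all loci). The former was BGLU42, a glucosidase of coumarin secretion, at 9.76, 9.41 and 9.78 against 8.53, 8.93 and 9.41 (0.69, adjusted p = 0.00664, not called without replicate 1 of WT). Of 22 iron status regulators and ferritins FER1 was called lower (-0.27, adjusted p = 0.0421) with all 6 arrays only. That share of 4.55% stands beside 9.13% of all loci. IRT1, the iron importer of the root epidermis, read 13.53, 9.996 and 13.49 against 13.24, 12.97 and 12.98 (-0.73, adjusted p = 0.566). FRO2, the ferric reductase, read 12.63, 8.34 and 12.58 against 11.96, 11.68 and 11.71, and bHLH38, a regulator of both, read 11.62, 7.18 and 11.65 against 11.07, 10.74 and 10.87. Replicates 1 and 3 lay above WT in all 3 genes and replicate 2 lay far below.

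The markers of tissue moved with the same array. The list means of 16 root markers, relative to the mean over the 27 arrays, were 0.28, -0.34 and 0.27 on 35S::GOX2 and 0.13, 0.12 and 0.14 on WT, and 1 member, COW1, was called lower (-0.39, adjusted p = 0.0459), a call that was lost without any one array other than replicate 3 of WT. Those of light harvesting and RuBisCO, which mark the leaf, were 0.07, -0.09 and 0.09 against 0.02, 0.05 and 0.07, with 0 of 24 genes called (median -0.06), 3 at an unadjusted p under 0.05 by limma and 5 by Student's unadjusted test. Flower and pollen markers had 0 of 9 called (median 0.11), 4 at an unadjusted p under 0.05 by either test. Without replicate 2, 1 member of the light harvesting list and 1 flower and pollen marker were called higher. Seed markers had 1 higher and 1 lower of 13, or 7.69% each, against 7.47% and 9.13% of all loci (median 0.24). SESA1 (0.94) and LEC1 (-0.51) were each not called without replicate 1 or 3 of 35S::GOX2 or replicate 1 or 2 of WT. The files hold no detection value, so the presence of a tissue cannot be read from these levels, and in such bulk RNA fewer cells of a type and less RNA per cell cannot be told apart. The role of tissue in the iron and Casparian strip values was not tested.

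Casparian strip and suberin genes, which seal the root endodermis, had 2 of 20 higher and 1 lower (median -0.10). These shares of 10% and 5% stand beside 7.47% and 9.13% of all loci. MYB41, a regulator of suberin, rose on all arrays, at 8.20, 8.48 and 7.97 against 5.88, 6.92 and 6.29 (1.85, adjusted p = 0.00551, and adjusted p = 0.0641 with slide as a random block), and ABCG2, a suberin transporter, fell by 0.36 (adjusted p = 0.00568). FAR4 differed by 0.51 and was not called without replicate 1 or 3 of 35S::GOX2 or replicate 1 or 3 of WT. CASP5, a scaffold protein of the strip, was the feature on which replicate 2 stood farthest from both partners, at 10.09, 4.65 and 9.93 against 9.12, 9.42 and 9.63 (-1.17, SE 1.15, adjusted p = 0.525). The list means on the 35S::GOX2 arrays were 0.43, -0.55 and 0.36.

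Light signaling genes were called in both directions, while the clock and starvation lists had calls in 1 direction only. Over all loci 7.47% were higher and 9.13% lower. Of 21 light signaling genes 5 rose (23.8%) and 2 fell (9.52%), with a median of -0.05. BBX32, a B-box protein, read 10.79, 9.89 and 10.73 against 8.71, 8.95 and 8.60 (1.72, adjusted p = 0.00428). ELIP1 and ELIP2, which protect chloroplasts in strong light, rose on every array, at 11.78, 11.92 and 11.58 against 10.70, 10.73 and 10.71 (1.04, adjusted p = 0.00297) and at 10.58, 10.47 and 10.47 against 9.79, 9.83 and 9.89 (0.67, adjusted p = 0.000191). CO, the flowering regulator CONSTANS, fell by 0.73 (adjusted p = 0.00117) and PIL5 (PIF1), which represses germination in the dark, by 0.43 (adjusted p = 0.00339). All 5 genes passed without any one array, and all but BBX32 passed with slide as a random block. Of 19 clock genes 2 rose (10.5%) and none fell (median -0.00). These were ELF4 at 0.60 and RVE8 at 0.52, the latter not without replicate 1 of WT. Of 20 genes of darkness and sugar starvation BZIP53 was called higher (0.40, adjusted p = 0.0152, not without replicate 1 or 3 of 35S::GOX2 or replicate 1 of WT, list median -0.13).

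Auxin genes had 2 of 21 higher (9.52%, against 7.47% of all loci) and 1 lower (4.76%, against 9.13%), with a median of -0.29. LBD29 and LBD16, which act in lateral root formation, differed by 0.95 and 0.40, and SHY2 (IAA3), an auxin repressor, by -0.54, and each call was lost without at least 2 of the arrays. The fast auxin-responsive gene IAA29 read 9.89, 13.09 and 9.87 against 12.81, 12.64 and 12.64 (-1.74, adjusted p = 0.189), low on replicates 1 and 3 and slightly above WT on replicate 2. Without replicate 2, 7 auxin genes were lower, when 10.6% of all loci were. Of 19 xyloglucan endotransglucosylases and expansins, which loosen cell walls, 4 rose and 2 fell (median 0.08). TCH4 read 14.50, 13.77 and 14.50 against 13.41, 13.26 and 13.14 (0.99, adjusted p = 0.00337) and XTR6 14.64, 14.76 and 14.65 against 14.02, 14.17 and 14.07 (0.60, adjusted p = 0.000365). XTH18 rose by 0.77, and EXPA1 and EXPA8 were called lower by 0.78 and 0.62. The expansins were not called without replicate 1 or 3 of 35S::GOX2 or replicate 1 of WT, nor EXPA1 without replicate 2 or 3 of WT. With slide as a random block XTH18 and XTR6 passed, and TCH4 did not.

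Of 22 nitrate and ammonium genes 2 were called higher (NRT1.8 0.94, AMT1;1 0.62) and 2 lower (AMT1;5 -0.53, G6PD3 -0.27), with a list median of -0.08. Both shares were 9.09%, against 7.47% and 9.13% of all loci. None of these genes was called without replicate 1 of WT, and each was lost without at least 1 array of 35S::GOX2. Of 16 phosphate starvation genes PEPC1 was called lower (-0.90, adjusted p = 0.031, not without replicate 2 of 35S::GOX2 or any WT array, list median -0.17). PIP2;8 was called lower (-0.60, adjusted p = 0.0274) among 19 aquaporins (median -0.14), but not without replicate 1 or 2 of either group. Of 17 phenylpropanoid and flavonoid genes 4 rose (median 0.13). PAP1, a MYB activator of anthocyanins, read 8.57, 9.28 and 8.58 against 7.26, 7.69 and 7.60 (1.29, adjusted p = 0.0024) and its relative MYB90 7.74, 9.13 and 7.79 against 6.65, 6.84 and 7.07 (1.37, adjusted p = 0.0216, not without replicate 2 of 35S::GOX2 or replicate 1 or 2 of WT). F3H (0.79) was not called without replicate 1 of WT, nor 4CL3 (0.49) without replicate 1 of 35S::GOX2. Of 21 glucosinolate genes MYB122 (0.63) and MYB51 (0.31), regulators of the indole branch, were called higher (9.52%, list median 0.12, 6 higher without replicate 2). Neither was called without replicate 1 or 3 of 35S::GOX2 or replicate 1 or 2 of WT, nor MYB122 without replicate 3 of WT. No gene of 21 of the cell cycle was called (median 0.01), with 2 at an unadjusted p under 0.05 by limma, 2 by Student's unadjusted test, and 2 called higher without replicate 2 of 35S::GOX2.

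**Figure D5:**
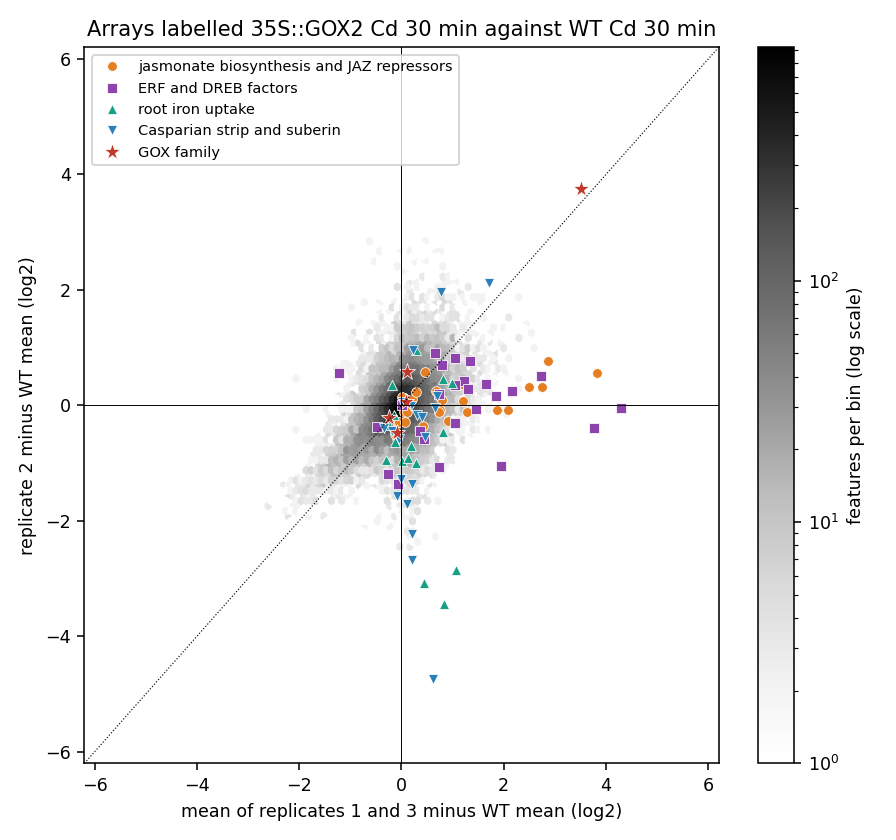
Each feature's mean of replicates 1 and 3 of 35S::GOX2 Cd 30 min minus the WT Cd 30 min mean (x, log2) against replicate 2 minus the same mean (y, log2), shaded by the number of features, with members of 5 lists marked and the line of equal difference dotted. GOX2 lies on that line near 3.5, while RRTF1 and JAZ7 lie far right at a y near 0 and CASP5 far below at -4.74.

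The named genes are sorted here by replicate 2 as a description, since the sets were read from the same arrays. Genes such as WRKY53, SULTR1;2, BZIP60, SAG101 and LSU3 were level on all 3 arrays labelled 35S::GOX2. RRTF1, JAZ7, LOX3, HSFA6B and MPK3 were high on replicates 1 and 3 only. DIN2, a glucosidase gene induced in the dark, was high on replicate 2 only, at 8.60, 13.13 and 8.40 against 8.66, 8.85 and 9.20. AT2G05040, a pseudogene, was high on replicates 1 and 3 and at the WT level on replicate 2, reading 10.46, 5.11 and 10.28 on 35S::GOX2 and 4.93, 4.95 and 4.70 on WT, and 10.65 to 10.94 in the untreated WT. Its difference, 3.76, was the largest of all features and had an SE of 1.13 (adjusted p = 0.0273). On replicates 1 and 3, the features that stood farthest from both partners were few, such as AT4G22635 (4.50, 6.94 and 6.31) and SUC9, a sucrose transporter gene (6.07, 7.01 and 4.74).

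The study's own list of early H2O2-dependent genes was chosen in part on these arrays, so its count is not independent evidence of a direction. Of its 101 genes 41 were called higher (40.6%) and 1 lower (0.99%), against 7.47% and 9.13% of all loci (median 0.55). From 23 to 53 were higher when an array was left out, the most without replicate 2 of 35S::GOX2 (9.17% of all loci). With slide as a random block 15 were higher (1.52% of all loci). AT1G19020 read 12.19, 12.11 and 12.22 against 10.46, 10.70 and 10.57 (1.60, SE 0.24, adjusted p = 0.000525). PSBP-2, named after its values were seen, was the gene that fell, at 9.28, 8.86 and 9.39 against 10.94, 10.23 and 10.03 (-1.23, adjusted p = 0.00113).

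Beside the other contrasts of the series, the stress genes and GOX2 went different ways. The 5 stress genes compared here were picked from those called higher after 30 min. Without Cd, where no array is shared, 35S::GOX2 minus WT was 3.70 for RRTF1, 3.13 for JAZ7, 2.43 for ZAT7, 1.99 for LSU2 and 1.09 for WRKY53, against 2.85, 2.73, 1.96, 2.1 and 1.62 after 30 min. GOX2, AT5G03090 and AT5G15420, which are high on the arrays of both 30 min 35S::GOX2 and untreated WT, had -4.05, -4.49 and -3.24 there. In that contrast 15 of 25 ERF and DREB genes and 12 of 16 small heat shock genes were higher (16.7% of all loci), while 3 ERF and DREB genes and 1 small heat shock gene were lower (21.4% of all loci). Also higher without Cd were 11 of 19 calcium genes, 11 of 23 WRKY factors and 12 of 26 jasmonate biosynthesis and JAZ genes. So were 10 of 19 genes of the Hsp70 list, 6 of 11 C2H2 factors and 6 of 14 heat shock factors. Lower in these lists were 3 WRKY factors and 1 C2H2 factor. After 24 h of Cd, also with other arrays, the same 5 stress genes had -0.63, 0.40, -0.03, -0.70 and -0.91, and 1 of 25 ERF and DREB genes was higher and 1 lower (6.85% and 7.48% of all loci). The mean of GOX2 was then 14.21 on 35S::GOX2 and 13.67 on WT. gox2 minus WT after 30 min, which uses the same WT arrays, was -0.36 for GOX2, -0.12 for RRTF1, 0.39 for JAZ7, 0.37 for ZAT7, 1.22 for LSU2 and 1.32 for WRKY53, with 3 of the 25 ERF and DREB genes higher and none lower (3.28% and 4.21% of all loci). Over all features the difference between the lines was itself different after 30 min and without Cd for 11041 (29.7%), 5983 in the positive and 5058 in the negative direction.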

How the data were processed

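RNA of each sample was hybridized, labelled with Cy3, to a single-color NimbleGen array. The authors deposited, for each array, expression intensity values that had been background-corrected, normalized and summarized by RMA over 1 to 4 probe pairs, on the linear scale. The files hold no detection value, the build is not given in the sources used here, and the submitters' processing notes list limma with no role or version. The deposited intensity was turned to log2 and quantile-normalized over all 27 arrays. A mean for each of 9 groups was fitted with limma 3.58.1 (lmFit, contrasts.fit, eBayes) in R 4.3.3, with labels read by jsonlite 2.0.0, because 3 arrays per group give few degrees of freedom. Tests were two-sided, moderated and adjusted by Benjamini-Hochberg over 37118 features, and no feature was left out. Each p-value weighs the difference of the group means against a spread between labelled replicates that is pooled over all 9 groups. The number of arrays limits the precision, and no depth exists for intensities.

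Symbols came from a RefSeq table (TAIR10.1) that matched 31993 of 32627 loci. The 43 gene lists (847 loci, 3 not on the array) were counted with 1 feature per locus, that of the highest mean. Members and lists were chosen with earlier results of these data known. The rule named the GOX family, up to 12 higher and 12 lower genes by the gap between groups, up to 5 called members of each list and up to 6 features per array that stood apart. Alternatives were other normalization, filters, blocks and tests, and leaving out arrays. The series table held the same values.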

Additional observations from a re-analysis of the deposited data

Results flagged for a closer look

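The difference in GOX2 between the lines was not the same with and without Cd. The contrast of 35S::GOX2 minus WT was 7.63 higher after 30 min of Cd than without Cd (SE 0.17, limma adjusted p = 1.62e-17), with a sign that turned from -4.05 to 3.58. On 3 of 3 arrays GOX2 was high after Cd in the line labelled 35S::GOX2, and on 3 of 3 it was low there without Cd. The levels of GOX2 in both lines changed places, and which RNA each array carries was not tested.

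The same test of the difference passed for 11041 features, 29.7% of those tested, against 16.9% called after 30 min of Cd alone. Line and slide cannot be told apart after Cd, since WT Cd 30 min lay on slide 2 and 35S::GOX2 Cd 30 min on slide 3, whereas both untreated groups shared slide 1.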

How the results depend on the processing

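The count of 6261 called features moved to 1259 with slide as a random block, 342 with slide as a fixed term, 1010 with only the 6 arrays in the fit, 1286 with a log2 fold change of at least 1, 36 by Student's test with Benjamini-Hochberg adjustment (8361 unadjusted) and 3592 without both replicate 2 of 35S::GOX2 and replicate 1 of WT, an alternative chosen after seeing the data. Leaving out 1 array gave 2167 (without WT replicate 1) to 7375 (without 35S::GOX2 replicate 2). The difference of GOX2 then lay between 3.45 and 3.67 and passed in every fit, its difference between conditions between 7.49 and 7.71, and the count of that test between 8596 and 11121. With the replicate number as a block, although equal numbers did not deviate together between WT Cd 30 min and 35S::GOX2 Cd 30 min (correlations of -0.13, -0.08 and 0.01) and do not pair these samples, the count was 6298, GOX2 was 3.58 and its difference between conditions was 7.63. Among 142 named genes 48 kept their side of the threshold with slide as a random block, 10 with slide as a fixed term and 59 with only the 6 arrays. With slide as a fixed term, HSFA6B (-0.085), ZF2 (-0.068), RRTF1 (-0.58), WRKY38 (-0.064), JAZ7 (-0.017) and LOX3 (-0.044) changed sign, and GOX1 did (-0.094) as the mean over the features of its locus. The cause was not tested. In the fixed-slide fit slides 2 and 3 are linked only through gox2 Cd 24 h. Signal over background is unknown, so dim genes have no stated limit.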
